A study of Mus musculus with 23 samples.

Results

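The genes described here are 27 genes of the mevalonate pathway, of cholesterol synthesis and of the sterol sensor system built around SREBP2, measured by RNA sequencing in mouse liver. They were chosen by name as members of these pathways and found by gene symbol in a count table of 27179 genes, where all 27 were present. The set holds 8 enzymes that lead from acetyl-CoA to farnesyl and geranylgeranyl diphosphate, 11 enzymes that lead from squalene to cholesterol, 4 genes of SREBP2 and its regulators, and 4 genes of sterol transport, sterol esterification and dolichol synthesis. All 27 had a mean of at least 1 CPM, the counts of a gene scaled to the library's size, over the mice, as did 12316 genes of the table, which are called expressed genes below.

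The study asked what loss of Icmt, the enzyme that methylates prenylated proteins at their carboxyl end, does in livers that express an activated Braf. Livers of 15 mice in 3 groups were compared, 6 Ctrl, 6 ABpIF/+ and 3 ABpIF/F, and the study's text says that liver tissue without visible tumors was taken from females. Every group carried Alb-Cre, which is active in hepatocytes, and Trp53 flx/flx, so that Trp53 is targeted in the hepatocytes of the controls too. Ctrl mice had wild-type Braf and Icmt flx/+. ABpIF/+ mice added a BrafCA/+ allele, which yields V600E after recombination, to Icmt flx/+, and ABpIF/F mice had the same Braf allele with Icmt flx/flx. The sample labels write BRAF +/+ for both ABpI groups while the series design names BrafCA/+. Cells in which Alb-Cre is not active keep their floxed alleles. The 3 ABpIF/F mice were of different ages, and the labels do not say which mouse had which age. The study's text reports liver tumors in all 3, with a burden that went with age. All but 1 of the Ctrl mice (the exception is BG3) carry another strain label than the ABpI mice. Strain and genotype therefore cannot be told apart in any comparison with Ctrl that uses those mice.

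Between 24742910 and 32262649 counts per mouse fell on genes. The targeted gene Icmt read 27.8 to 34.7 CPM in Ctrl, 27.8 to 37.4 CPM in ABpIF/+ and 15.2 to 16.6 CPM in ABpIF/F, so its order followed the labels. It was lower in ABpIF/F than in Ctrl by 0.96 on the log2 scale (adjusted p = 8.51e-06). The 6 hepatocyte markers summed to 91356 to 121110 CPM in Ctrl, 143646 to 203155 CPM in ABpIF/+ and 108267 to 195737 CPM in ABpIF/F. Most of that sum is Alb, and in ABpIF/+ vs Ctrl 3 of the 6 were higher (Alb, Serpina1a, Hnf4a) and 3 lower (Ttr -0.81, Apoa2 -0.69, Cps1 -0.61). In bulk liver, fewer cells of a type and less RNA per cell cannot be told apart.

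Cholesterol is built in the endoplasmic reticulum and peroxisomes from acetyl-CoA, and the liver is a main site of its synthesis. The same early steps supply farnesyl and geranylgeranyl groups, the lipids that are attached to Ras-family proteins before Icmt methylates them. When sterols in the endoplasmic reticulum are low, the escort protein SCAP carries SREBP2 to the Golgi, where proteases free its transcription factor part. When sterols are high, INSIG1 and INSIG2 hold SCAP and SREBP2 back. SREBP2 binds sterol regulatory elements together with the general factors NF-Y and Sp1, and most enzyme genes of the pathway are known targets of it.

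Levels between genes were compared as CPM per kilobase of annotated exon. The length is the union of all annotated exons of a gene, so the places depend on that annotation and a long union lowers a gene. In Ctrl livers Hmgcs1, the enzyme that makes HMG-CoA, had the first place with 173 ± 27.9 CPM per kilobase (SD, n = 6). Sc5d, a sterol desaturase, followed with 158 ± 19.0, and Insig1 with 148 ± 61.9, and these 3 neighbours did not differ beyond their spread. Ebp, the sterol isomerase, stood at 117 ± 20.0 and Fdps, which makes farnesyl diphosphate, at 89.4 ± 16.8. The lowest were Ggps1, which makes geranylgeranyl diphosphate, at 1.28 ± 0.292, Dhdds, which starts dolichol, at 7.49 ± 0.708, and Lss, which closes the sterol rings, at 10.6 ± 3.64 CPM per kilobase. The exon union of Lss is long, at 10787 bases, and its Ctrl mean before division by length was 115 CPM.

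In ABpIF/+ livers Insig1 was first with 112 ± 26.3 CPM per kilobase and Hmgcs1 was in place 5 with 52.1 ± 22.8. Idi1, which isomerises isopentenyl diphosphate, went from place 9 in Ctrl to place 24. Soat2, which esterifies cholesterol in hepatocytes, went from place 20 to place 6 with 49.9 ± 12.6 CPM per kilobase. In ABpIF/F livers Insig1 and Hmgcs1 held places 1 and 2, with 107 ± 70.8 and 102 ± 56.1 CPM per kilobase (n = 3), and did not differ beyond their spread.

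In ABpIF/+ livers several enzymes of sterol synthesis had less mRNA than in Ctrl livers. Of the 27 genes, 7 were downregulated and 1 was upregulated. A gene is called so where its adjusted p, from edgeR's quasi-likelihood test with Benjamini-Hochberg correction over the whole table, was under 0.01 and the difference at least 2-fold. Over all genes 5.35% of genes were downregulated by this rule and 4.69% upregulated, and among expressed genes 9.39% and 8.21%. All 7 downregulated genes were among the 19 synthesis enzymes. At an adjusted p under 0.05 with any fold, 11 of the 27 were lower and 2 higher, where 12.7% of all genes were lower and 12.7% higher (23.3% and 24.1% of expressed genes). The median log2 fold change was -0.52 over the 27 genes and -0.74 over the 19 enzymes, beside 0.02 over expressed genes, and 17 of the 19 enzymes had a negative value.

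**Figure D1:**
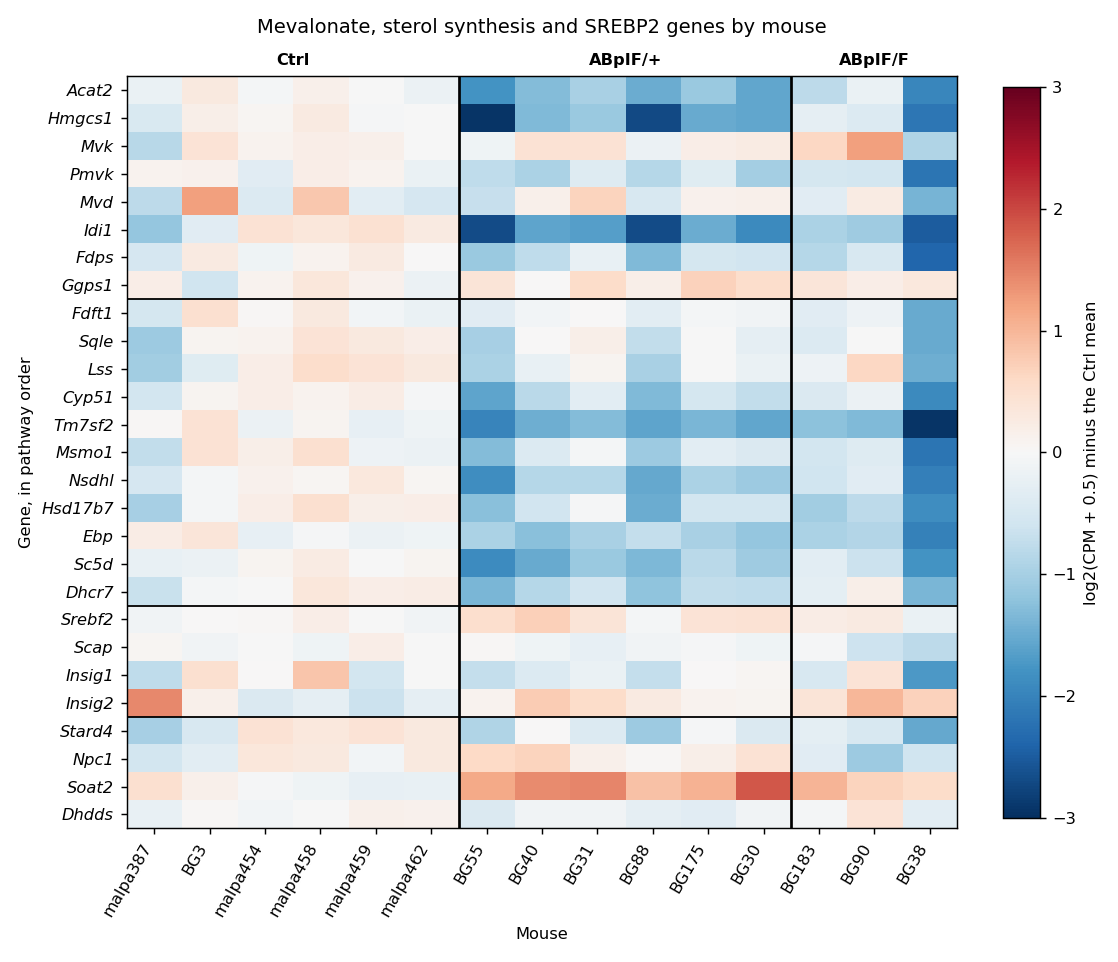
Each column is a mouse and each row a gene in pathway order, and the colour gives log2(CPM + 0.5) minus the Ctrl mean of that gene, blue for lower and red for higher. Hmgcs1, Idi1, Tm7sf2, Sc5d and Acat2 are blue in all 6 ABpIF/+ mice, Soat2 is red in all 9 ABpI mice, and among the ABpIF/F mice BG38 is the darkest column.

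In the mevalonate stretch of the pathway, Acat2, Hmgcs1 and Idi1 fell in ABpIF/+. Hmgcs1 read 573, 794 and 944 CPM as lowest, median and highest of Ctrl and 102, 272 and 359 CPM in ABpIF/+. Every ABpIF/+ mouse was therefore below every Ctrl mouse, by a log2 fold change of -1.73 ± 0.35 (SE), 3.31-fold (adjusted p = 0.00139). Idi1 had the widest difference of the set. Its Ctrl values ran from 66.6 over a median of 185 to 206 CPM and its ABpIF/+ values from 22.7 over 43.4 to 53.4 CPM, without overlap, with a log2 fold change of -2.03 ± 0.35, 4.09-fold (adjusted p = 0.000532). Acat2, the cytosolic thiolase that joins acetyl-CoA units, read 94.3, 106 and 134 CPM in Ctrl and 31.0, 41.3 and 55.0 CPM in ABpIF/+, again without overlap, and fell by 1.37 ± 0.22 on the log2 scale (adjusted p = 0.000132). The mouse has a neighbouring close relative of this gene, Acat3, whose log2 fold change was -1.97, and how the counting split reads between them is not given in the sources used here.

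Of the other mevalonate enzymes Pmvk and Fdps were lower at less than 2-fold. Pmvk, which makes mevalonate diphosphate, was lower without overlap between the groups (-0.71 ± 0.22, adjusted p = 0.0267). Fdps was lower by 0.73 ± 0.26 on the log2 scale (adjusted p = 0.045), with overlapping groups. For Mvk and Mvd, a kinase and the decarboxylase of mevalonate, the log2 fold changes were 0.14 ± 0.29 and -0.15 ± 0.41 and did not pass the test. Ggps1, the branch point to geranylgeranyl groups, had 0.40 ± 0.17 (adjusted p = 0.0837) and did not pass the test either.

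Between squalene and cholesterol, 4 enzymes fell and 2 more were lower at less than 2-fold. Tm7sf2, a sterol C14 reductase, read 129.6, 149 and 208 CPM in Ctrl and 38.6, 53.4 and 61.7 CPM in ABpIF/+. The groups lay far apart and the log2 fold change was -1.56 ± 0.22, 2.95-fold (adjusted p = 3.21e-05). Sc5d read 661, 785 and 904 CPM in Ctrl and 205, 327 and 436 CPM in ABpIF/+, a difference of -1.26 ± 0.21 without overlap (adjusted p = 6.19e-05). Nsdhl, which removes a carboxyl group from the sterol ring, read 87.7, 129 and 154 CPM in Ctrl and 33.7, 61.0 and 68.8 CPM in ABpIF/+ (-1.17 ± 0.25, adjusted p = 0.00186), and these ranges did not overlap either. Ebp stood just past the 2-fold line. It read 225, 252 and 341 CPM in Ctrl and 112, 135 and 161 CPM in ABpIF/+, without overlap, at -1.01 ± 0.17 (adjusted p = 6.32e-05).

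The other enzymes of this stretch all had negative log2 fold changes. Dhcr7, the last reductase before cholesterol, was lower by 0.93 ± 0.22 on the log2 scale (adjusted p = 0.00331), just short of the 2-fold line, and Cyp51, the lanosterol demethylase, was lower by 0.84 ± 0.26 (adjusted p = 0.0234). Hsd17b7, a sterol ketone reductase, had -0.74 ± 0.27 (adjusted p = 0.0628) and Msmo1, which oxidises sterol methyl groups, -0.60 ± 0.30 (adjusted p = 0.187). The entry steps did not pass the test. Fdft1, squalene synthase, had -0.18 ± 0.19, Sqle, the epoxidase that is a rate-limiting step, -0.32 ± 0.28, and Lss -0.41 ± 0.34.

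Of the 4 genes of SREBP2 and its regulators 1 was higher and 0 were lower in ABpIF/+. Srebf2, the gene of SREBP2 itself, was higher in ABpIF/+ (78.0 to 134 CPM) than in Ctrl (74.9 to 92.1 CPM), by 0.42 ± 0.12 on the log2 scale (adjusted p = 0.0135), with overlap at the low end. Scap, Insig1 and Insig2 had -0.11 ± 0.12, -0.40 ± 0.33 and 0.14 ± 0.32 and did not pass the test. Insig1 is a known SREBP2 target, and its highest Ctrl value was 3.04 times the lowest.

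Soat2 was the only one of the 27 upregulated in ABpIF/+. It read 36.6, 40.9 and 60.9 CPM as lowest, median and highest of Ctrl and 80.7, 107 and 158 CPM in ABpIF/+, so all ABpIF/+ mice were above all Ctrl mice, at a log2 fold change of 1.33 ± 0.16, 2.51-fold (adjusted p = 1.13e-06). The transport genes Npc1, which moves cholesterol out of lysosomes, and Stard4, a soluble sterol carrier, had 0.33 ± 0.17 and -0.52 ± 0.29, and Dhdds had -0.23 ± 0.12, none past the test. Counted over the set, 8 genes were lower and 1 higher without overlap between the mice, where 15.8% and 15.5% of expressed genes were.

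Each of the 8 calls ended when BG3, the Ctrl mouse with the strain label of the ABpI mice, was the only control kept and was assumed to vary like the other groups. Their log2 fold changes then lay between -1.98 (Tm7sf2) and 1.19 (Soat2), with an absolute value of at least 1.07 (Sc5d), and their adjusted p between 0.010 and 0.30. The call of Ebp also ended without malpa387, without BG3, without the ABpIF/+ mouse BG40, without the ABpIF/+ mouse BG30 and with a clock gene score as a covariate, its log2 fold change running from -1.35 to -0.93 over the alternatives.

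On GRCm38 these genes lie at chr17:12943042-12960725 (Acat2), chr13:119690351-119708260 (Hmgcs1), chr13:8885606-8892396 (Idi1), chr19:6062821-6067850 (Tm7sf2), chrX:72918521-72958528 (Nsdhl), chrX:8185329-8193512 (Ebp), chr9:42251592-42264300 (Sc5d) and chr15:102150415-102163469 (Soat2).

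**Figure D2:**
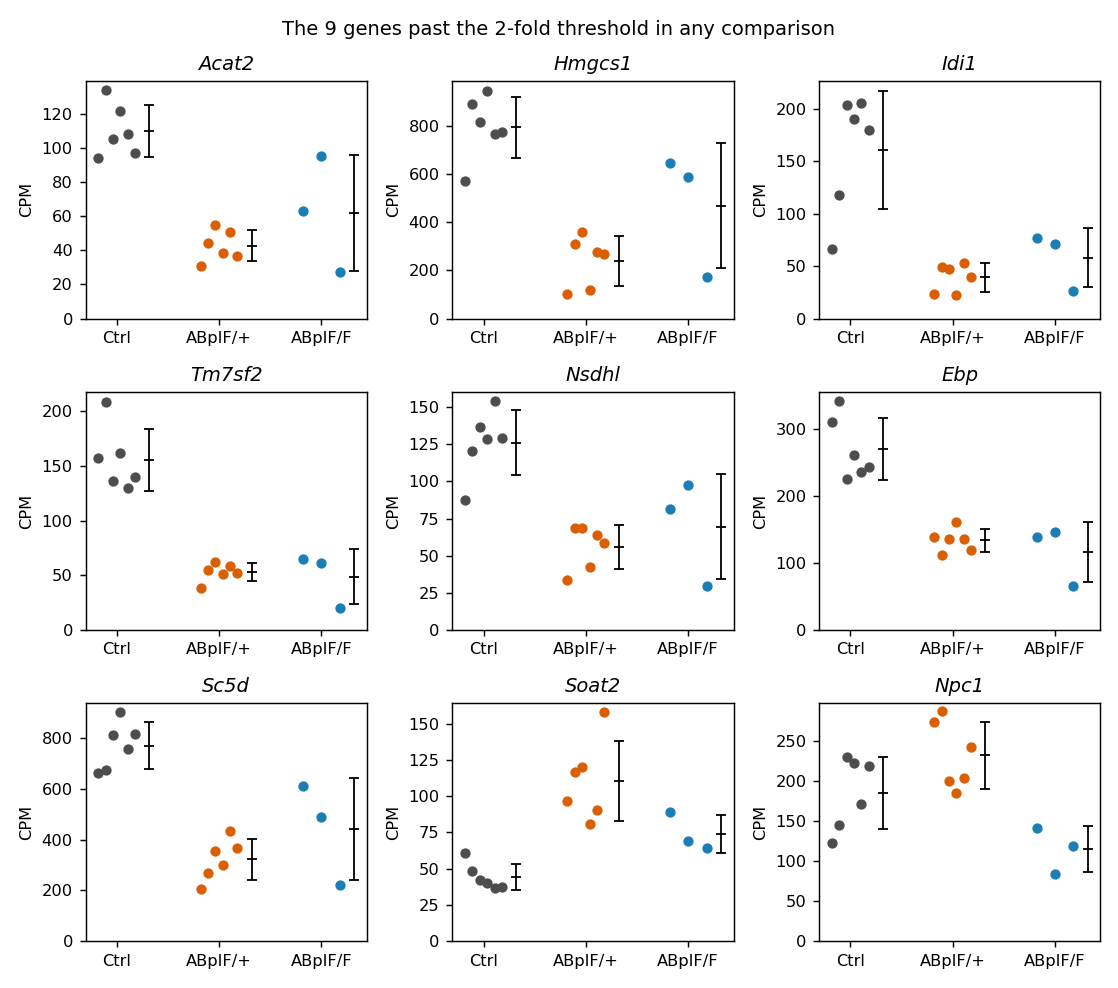
CPM of the 9 genes that were called in any comparison, with 1 point per mouse in each group and the mean ± SD at the right of the points; every axis starts at 0. The 7 panels from Acat2 to Sc5d show all ABpIF/+ points below all Ctrl points, Soat2 shows the opposite, and Npc1 shows the ABpIF/F points below all ABpIF/+ points.

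Promoter sequence is shown for the 7 downregulated enzymes, of which all but 1 hold a box for NF-Y, a partner of SREBP2. Of the 16 synthesis enzymes with a RefSeq promoter, 15 held this box, so it does not set the downregulated ones apart. The genes were chosen as members of a pathway with many known SREBP2 targets, so the share of this box is not independent of that choice. Printed are the 150 bases before the RefSeq start of transcription (GRCm38.p6), read 5′ to 3′ in the direction of the gene, in lower case. Capitals mark the NF-Y box, CCAAT or ATTGG on the other strand, and in Hmgcs1 also the sterol regulatory element TCACNCCAC. The stretches are chr17:12960726-12960875, minus strand, for Acat2; chr13:119690201-119690350, plus strand, for Hmgcs1; and chr13:8885456-8885605, plus strand, for Idi1. They are chr19:6067851-6068000, minus strand, for Tm7sf2 and chrX:72918371-72918520, plus strand, for Nsdhl. The remaining stretches are chrX:8193513-8193662, minus strand, for Ebp and chr9:42264301-42264450, minus strand, for Sc5d.
Acat2: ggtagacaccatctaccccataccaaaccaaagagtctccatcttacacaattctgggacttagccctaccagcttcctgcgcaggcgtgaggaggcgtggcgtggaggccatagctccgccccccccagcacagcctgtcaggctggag
Hmgcs1: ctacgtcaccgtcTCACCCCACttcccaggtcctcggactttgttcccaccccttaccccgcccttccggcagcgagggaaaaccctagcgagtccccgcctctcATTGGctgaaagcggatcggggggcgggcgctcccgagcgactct
Idi1: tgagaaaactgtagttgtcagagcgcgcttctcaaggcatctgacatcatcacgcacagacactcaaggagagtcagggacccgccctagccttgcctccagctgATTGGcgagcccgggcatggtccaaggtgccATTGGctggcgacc
Tm7sf2: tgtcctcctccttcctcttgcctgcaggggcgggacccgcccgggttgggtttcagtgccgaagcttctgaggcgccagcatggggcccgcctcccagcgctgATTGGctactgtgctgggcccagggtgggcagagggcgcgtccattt
Nsdhl: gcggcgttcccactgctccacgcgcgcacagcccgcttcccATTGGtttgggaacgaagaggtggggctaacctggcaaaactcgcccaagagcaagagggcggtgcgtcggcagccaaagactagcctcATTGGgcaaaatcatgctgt
Ebp: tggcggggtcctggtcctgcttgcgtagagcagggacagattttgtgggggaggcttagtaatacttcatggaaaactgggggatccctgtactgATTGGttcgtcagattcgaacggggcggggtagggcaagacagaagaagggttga
Sc5d: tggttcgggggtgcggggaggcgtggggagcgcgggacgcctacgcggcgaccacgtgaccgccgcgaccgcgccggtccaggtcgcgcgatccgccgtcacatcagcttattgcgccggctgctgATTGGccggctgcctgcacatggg

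All of these genes but Acat2 hold at least 1 NF-Y box in the printed stretch, and Idi1 and Nsdhl hold 2. In Hmgcs1, Idi1, Tm7sf2 and Ebp a box begins 45, 45, 47 and 55 bases before the start, each time as ATTGG. The printed boxes of Nsdhl begin 109 and 20 bases before the start, and that of Sc5d 24 bases before it. In the band from 75 to 6 bases before the start, chosen after the positions were seen, 16 of 21 genes held a box (76.2%), against 20.2% of expressed genes. RefSeq promoters, 250 bases before to 50 after the start, were given for 21 of the 27 genes, and not for Fdps, Fdft1, Sqle, Soat2, Stard4 and Npc1. Of those 21, 19 held an NF-Y box on either strand in at least 1 promoter (90.5%), against 42.8% of the 9729 expressed genes with a promoter and 41.1% of all 27025 genes with a promoter. The other gene without a box besides Acat2 was Scap. The Sp1 box GGGCGG was found in 19 of 21 as well, against 67.5% of expressed genes and 38.2% of all genes with a promoter.

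The exact 9 letters TCACNCCAC were found in Hmgcs1 and in no other of the 21, against 1.48% of expressed genes and 1.44% of all genes with a promoter. The E-box CACGTG was found in 6 of 21, against 11.9% of expressed genes and 8.09% of all genes with a promoter. No match to one motif overlapped a match to another among the 95 matches in the 27 promoters of these genes. All motifs were searched on both strands, and a match describes letters, not binding. NF-Y boxes were present in enzymes with large differences such as Idi1 and in Mvk and Mvd, whose differences did not pass the test.

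**Figure D3:**
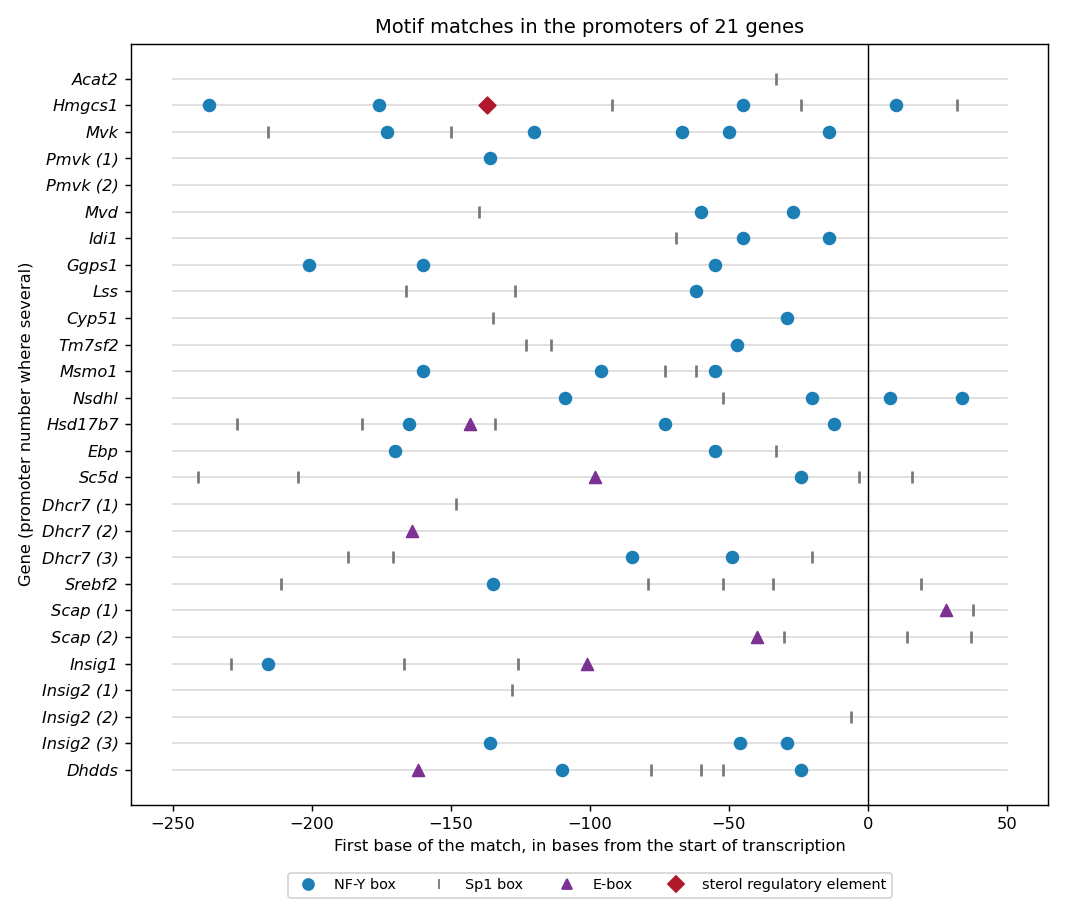
Each line is a RefSeq promoter of 1 of 21 genes, from 250 bases before to 50 bases after the start of transcription, which is at 0, and each symbol is the first base of a motif match on either strand. Filled circles, the NF-Y boxes, lie on a line of 19 of the 21 genes and many stand close before the start, and the only diamond, the sterol regulatory element, is that of Hmgcs1.

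In ABpIF/F livers, where both Icmt alleles are floxed, the 3 mice differed widely in these genes. Against Ctrl, 2 of the 27 genes were downregulated and 0 upregulated, where 2.38% and 4.55% of all genes were (5.04% and 7.53% of expressed genes). DESeq2 called 5 downregulated and 0 upregulated (5.82% and 8.52% of expressed genes). With any fold at an adjusted p under 0.05, 10 genes were lower and 1 higher, against 7.36% and 9.7% of all genes (15.7% and 16.1% of expressed genes), and at an unadjusted p under 0.05 13 were lower and 1 higher (22.9% and 22.8% of expressed genes). The median log2 fold change was -0.69 over the 27 genes and -0.81 over the 19 enzymes, beside 0.00 over expressed genes, and 17 of the 19 were negative. Ctrl mice are shared between this comparison and that of ABpIF/+.

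Tm7sf2 read 64.8, 61.2 and 19.6 CPM in the ABpIF/F mice BG183, BG90 and BG38, all below the lowest Ctrl value of 129.6 CPM. It fell by 1.68 ± 0.29 on the log2 scale (adjusted p = 0.000403). Ebp read 138, 145 and 65.0 CPM in the same order, all below the Ctrl minimum of 225 CPM, and fell by 1.21 ± 0.21 (adjusted p = 0.000255). Without BG38 the log2 fold change of Ebp was -0.93, under the 2-fold line, and that of Tm7sf2 was -1.30.

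A further 8 genes were lower at an adjusted p under 0.05 only: Acat2, Pmvk, Idi1, Fdps, Hsd17b7, Sc5d, Scap and Npc1. Idi1 had a log2 fold change of -1.47 ± 0.44 (adjusted p = 0.0349), with values of 77.4, 71.2 and 26.1 CPM in BG183, BG90 and BG38 that overlapped the lowest Ctrl mouse at 66.6 CPM. Hsd17b7 had -1.24 ± 0.35 (adjusted p = 0.0234) and Fdps -1.07 ± 0.33 (adjusted p = 0.032). Hmgcs1, which fell in ABpIF/+, read 647, 587 and 174 CPM and had -0.76 ± 0.43 here (adjusted p = 0.298). Pmvk, Sc5d, Tm7sf2 and Ebp were lower without overlap with Ctrl, and Soat2 higher without overlap, where 16.5% and 15.1% of expressed genes were.

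Soat2 was again the higher gene, with 88.8, 69.2 and 64.1 CPM in BG183, BG90 and BG38 and a log2 fold change of 0.75 ± 0.19 (adjusted p = 0.00651). Npc1 read 141, 83.9 and 118 CPM and was lower than Ctrl by 0.69 ± 0.21 on the log2 scale (adjusted p = 0.026). With a clock gene score as a covariate its log2 fold change was -0.016. That score largely follows the ABpIF/F group, so the fit separates score and group poorly. Scap, the SREBP2 escort, read 175, 115 and 104 CPM and was lower by 0.45 ± 0.15 (adjusted p = 0.0466). Srebf2 had 0.12 ± 0.15 and Insig2 0.51 ± 0.38, neither past the test.

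Leaving out BG38 left 2 of the 10 lower genes, Tm7sf2 and Ebp, where 10% of expressed genes were lower and 10.7% higher, and brought a second higher gene, Mvk, whose values were 65.9 and 100.3 CPM in BG183 and BG90 and 22.5 CPM in BG38 (log2 fold change 0.92 without BG38, adjusted p = 0.0144). Leaving out the Ctrl mouse malpa387 gave 4 downregulated genes in place of 2, and leaving out BG90 also gave 4. Without malpa454, malpa458, malpa459 or malpa462 the number lower at any fold was 5, 4, 5 and 4, and without BG183 no gene was higher. The share of expressed genes is not given for the fits without a Ctrl mouse, BG90 or BG183. Their counts therefore cannot separate a change in these genes from a change over all genes.

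**Figure D4:**
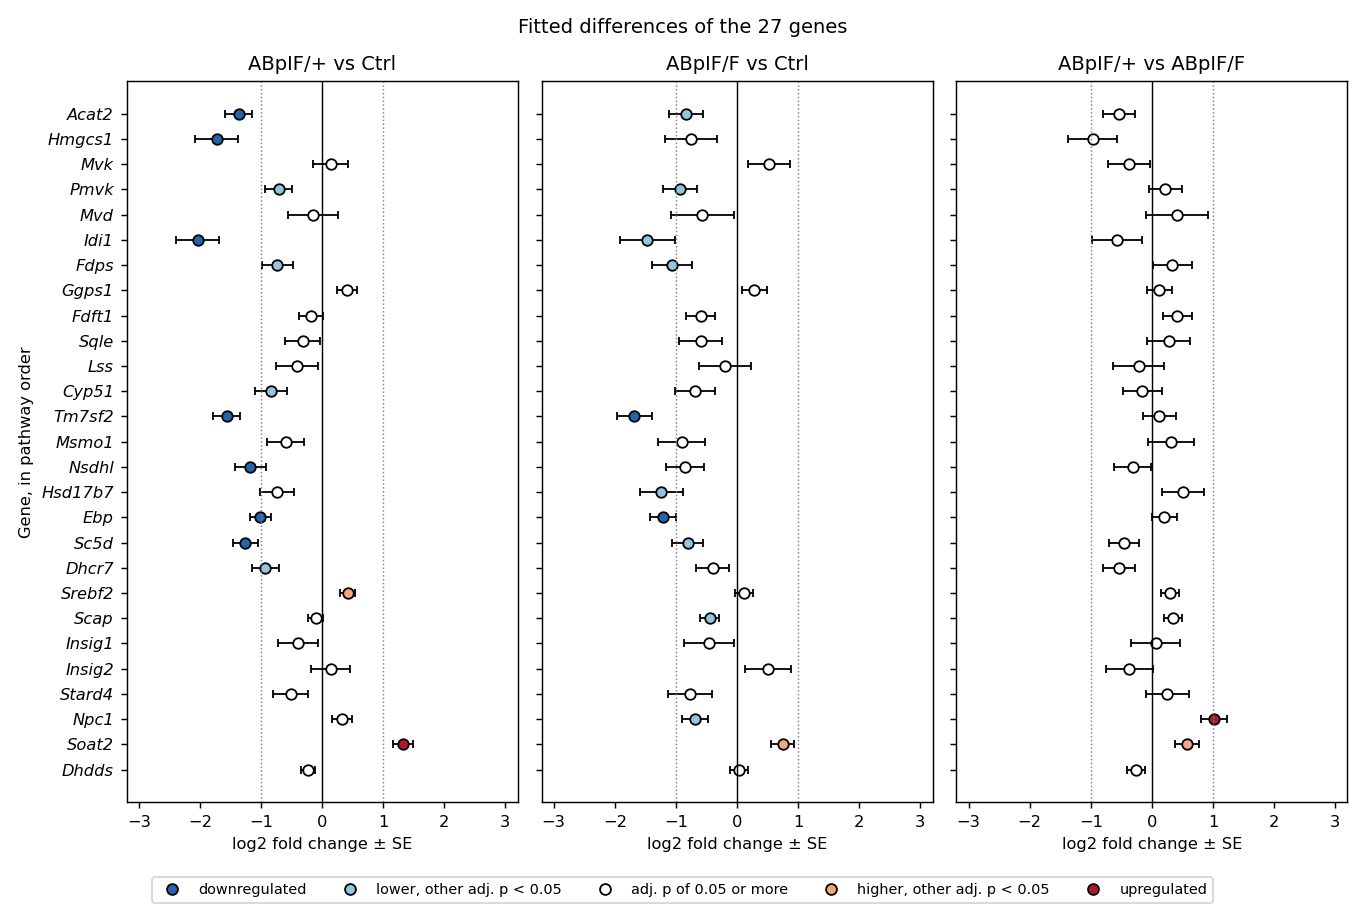
Log2 fold change of each gene with its standard error in the 3 comparisons, genes in pathway order from top to bottom, with dotted lines at 2-fold. Most points from Acat2 to Dhcr7 lie left of 0 in both comparisons with Ctrl, the bars are wider for ABpIF/F, and in ABpIF/+ vs ABpIF/F the points lie on both sides of 0 with Npc1 past the dotted line.

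The comparison of ABpIF/+ with ABpIF/F asks what the second Icmt allele changes when Braf is active. Of the 27 genes 1 was upregulated in ABpIF/+, Npc1, and 0 were downregulated, where 1.76% and 5.49% of all genes were (3.72% and 8.5% of expressed genes). DESeq2 also called 1 and 0 (4.53% and 10.2% of expressed genes). At any fold 2 were higher, Npc1 and Soat2, and 0 lower, where 7.46% and 10.7% of all genes were (15.8% and 16.6% of expressed genes). At an unadjusted p under 0.05 there were 3 higher and 1 lower, Hmgcs1 (24.3% and 22.4% of expressed genes). The median log2 fold change was 0.12 over the 27 genes and over the 19 enzymes alike, beside 0.04 over expressed genes.

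Npc1 read 185, 222 and 286 CPM as lowest, median and highest of ABpIF/+, and 141, 83.9 and 118 CPM in the ABpIF/F mice. All ABpIF/+ mice were above all ABpIF/F mice, which 19.2% of expressed genes also showed, and the log2 fold change was 1.02 ± 0.22 (adjusted p = 0.00176). The call ended in 8 of 25 alternatives, among them leaving out BG55, BG40, BG90 or BG38. With a clock gene score as a covariate the log2 fold change was 0.33 (adjusted p = 0.568). The clock scores of the ABpI groups do not overlap, so that fit separates score and group poorly. Soat2 was 0.58 ± 0.20 higher in ABpIF/+ on the log2 scale (adjusted p = 0.0441), with overlapping groups.

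In the edgeR fit of all 15 mice no enzyme differed between the ABpI groups past the test. DESeq2 had Hmgcs1 lower at any fold (19.9% of expressed genes were), and with total counts in place of TMM scaling Acat2 and Dhdds were lower (22% of expressed genes). In the edgeR fit Hmgcs1 had -0.97 ± 0.40 (adjusted p = 0.119), Idi1 -0.57 ± 0.41, Acat2 -0.53 ± 0.26 and Sc5d -0.45 ± 0.24. Without BG38, 5 enzymes were lower in ABpIF/+ than in the other ABpIF/F mice, as were 11.9% of expressed genes: Hmgcs1 (-1.37, adjusted p = 0.0193), Acat2 (-0.89, adjusted p = 0.00363), Dhcr7 (-0.86, adjusted p = 0.0114), Mvk (-0.78, adjusted p = 0.0393) and Sc5d (-0.78, adjusted p = 0.0165).

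Summed over the pathway, the 19 enzymes came to 4344 ± 638 CPM in Ctrl (SD, n = 6), 2207 ± 520 CPM in ABpIF/+ (n = 6) and 2480 ± 1199 CPM in ABpIF/F (n = 3). In ABpIF/+ the sum ran from 1495 CPM in BG55 to 2843 CPM in BG31, all below the lowest Ctrl mouse, malpa387, at 3167 CPM. Of the ABpIF/F mice BG183 and BG90 had 3052 and 3285 CPM, on either side of malpa387, and BG38 had 1102 CPM, the lowest of all 15 mice.

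In several mice most enzymes lay at one end of their group. In BG38, 18 of the 19 enzymes were at the lowest value of ABpIF/F and 18 were below every Ctrl mouse. Ggps1 was the exception to both counts, with 7.45 CPM in BG38 against 6.86 CPM in BG90. In BG90, 13 of 19 were at the highest value of the group and 4 below every Ctrl mouse. BG31 had the highest ABpIF/+ value of 12 enzymes and BG55 the lowest of 11, and in Ctrl malpa387 had the lowest value of 15.

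The spread within ABpIF/F was accordingly wide for most enzymes. The coefficient of variation of Lss was 63.1% in ABpIF/F, 29.7% in ABpIF/+ and 34.2% in Ctrl, and that of Tm7sf2 51.7%, 15.3% and 18.4%. Ggps1 had the least variation of the enzymes in ABpIF/F, 6.26%. Srebf2 varied by 7.77% in Ctrl, less than any enzyme of the set.

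In clock genes malpa387 stood apart from the other Ctrl mice. A clock score was taken as the mean log2 CPM of 4 clock genes that peak with Bmal1 minus that of 7 that peak in antiphase. It was -5.50 to -4.50 in 5 Ctrl mice and 0.38 in malpa387, -4.71 to -3.74 in ABpIF/+ and -0.92, 1.63 and 0.11 in BG183, BG90 and BG38. Times of collection are not in the labels, and the part of the time of day in the enzyme levels of malpa387 and ABpIF/F was not tested. Outside ABpIF/F only malpa387 had a score near those of ABpIF/F. A fit with the score as a covariate therefore separates the score from that group poorly, and a call lost in it does not show a part of the clock. With the score as a covariate ABpIF/+ vs Ctrl had 6 downregulated genes and 1 upregulated (9.18% and 8.53% of expressed genes), and ABpIF/F vs Ctrl had 1 downregulated, Ebp, and 2 lower at any fold (2.59% and 6.85% of expressed genes). In the latter fit Idi1 had a log2 fold change of -0.30, Hsd17b7 of -0.40 and Soat2 of 0.42, and none of them passed the test.

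Neutrophil, bile duct, macrophage, stellate and lymphocyte markers had their highest ABpIF/F sums in BG38, and endothelial markers, at 153 CPM, their lowest. Neutrophil markers, 4 genes, summed to 2.40 to 4.14 CPM in Ctrl, 2.18 to 6.89 in ABpIF/+, and 4.60, 27.6 and 79.4 in BG183, BG90 and BG38. Bile duct markers, 5 genes, summed to 35.6 to 68.1 CPM in Ctrl, 29.9 to 145 in ABpIF/+ and 204, 777 and 1147 in those mice. Spp1 made up 175, 724 and 1081 CPM of the latter, and in ABpIF/+ vs Ctrl Krt19 was downregulated (-1.21) and Sox9 upregulated (2.61). In BG183, BG90 and BG38 hepatocyte markers summed to 195737, 162527 and 108267 CPM. Macrophage markers, 6 genes, ran from 302 to 433 CPM in Ctrl, 113 to 209.6 in ABpIF/+ and 267 to 607 in ABpIF/F. Stellate cell and fibroblast markers, 5 genes, ran from 161 to 219, 37.1 to 79.6 and 143 to 246 CPM. Endothelial markers, 5 genes, ran from 139.9 to 209, 69.7 to 161 and 153 to 211 CPM, and lymphocyte markers, 6 genes, from 2.33 to 4.14, 0.403 to 1.79 and 3.11 to 10.3 CPM. The 4 adipocyte markers summed to at most 4.35 CPM in any mouse and to 1.86 CPM in BG38, below every Ctrl mouse, and 1 of them was at 0 in every ABpIF/F mouse. Over all lists, 4 macrophage, 5 stellate, 2 endothelial genes and Krt19 were downregulated and Sox9 and Serpina1a upregulated in ABpIF/+ vs Ctrl. In ABpIF/F vs Ctrl 4 neutrophil and 3 bile duct genes and Cd8a were upregulated and Apoa2 downregulated. The part of these cells, and of the age and tumor burden of the ABpIF/F mice, in the enzyme levels was not tested.

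**Figure D5:**
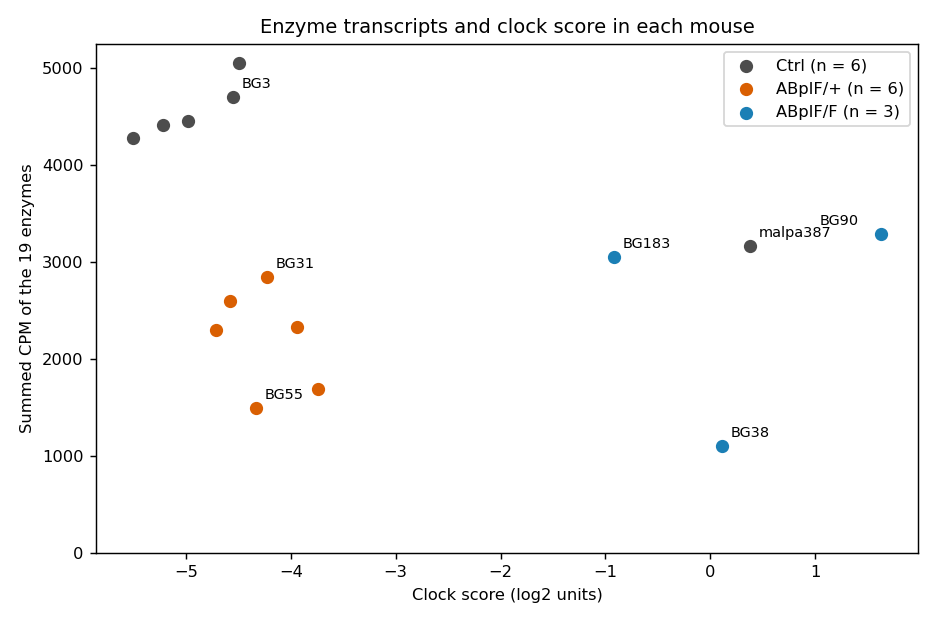
Summed CPM of the 19 synthesis enzymes against the clock score (log2 units) of each mouse, coloured by group. Of the Ctrl mice 5 lie at the upper left, all ABpIF/+ mice at the lower left between 1495 and 2843 CPM, and malpa387 lies at the right beside BG183 and BG90, with BG38 below them at 1102 CPM.

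A list of 10 further lipid genes, drawn up as SREBP2 targets, moved in both directions. Not all of them are established targets, Stard5 among those that are not. In ABpIF/+ vs Ctrl 3 were downregulated and 1 upregulated, with a median log2 fold change of -0.44, and in ABpIF/F vs Ctrl 5 and 1, with -0.86. Acss2, which makes acetyl-CoA from acetate, had -2.60 ± 0.24 in ABpIF/+ (adjusted p = 9.61e-08) and -2.44 ± 0.31 in ABpIF/F (adjusted p = 1.42e-05). Fads2, a fatty acid desaturase, had -1.52 ± 0.20 and -1.96 ± 0.27. Ldhb, a lactate dehydrogenase subunit, rose by 2.62 ± 0.23 in ABpIF/+ and by 1.18 ± 0.26 in ABpIF/F, from a low Ctrl mean of 1.58 CPM. Stard5, a sterol carrier, fell in ABpIF/F (-1.16 ± 0.17) and was 1.45 ± 0.17 higher in ABpIF/+ than in ABpIF/F (adjusted p = 4.79e-06).

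Partners of sterol synthesis and genes of its non-sterol branches, 12 genes of which Idi2 had no read in any mouse, gave 3 downregulated in each comparison with Ctrl. Aacs, which activates acetoacetate for sterol synthesis, had -1.84 ± 0.36 in ABpIF/+ and -2.12 ± 0.47 in ABpIF/F. Pgrmc1, which binds haem and sterol-synthesis P450s, had -1.18 ± 0.13 and -1.17 ± 0.17. Por, the electron donor of Cyp51 and Sqle, fell in ABpIF/F by 2.13 ± 0.29 on the log2 scale (adjusted p = 1.93e-05) and was 2.72 ± 0.30 higher in ABpIF/+ than in ABpIF/F (adjusted p = 4.18e-06).

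Of 9 genes of SREBP processing and sterol-controlled degradation 0 were called against Ctrl, with 1 lower at any fold in ABpIF/+ and 3 in ABpIF/F. Spring1, which maintains the first SREBP protease, was 1.16 ± 0.22 higher in ABpIF/+ than in ABpIF/F (adjusted p = 0.000591). Of 9 LXR and sterol efflux genes 1 was called in any comparison, Abcg1, which exports cholesterol, at -1.08 ± 0.26 in ABpIF/+ vs ABpIF/F (adjusted p = 0.0053). Of 11 genes of lysosomal and vesicular cholesterol, Lipa, the lysosomal esterase, and Soat1, the esterifying enzyme of other cells, fell in ABpIF/+ by 1.27 ± 0.11 and 1.25 ± 0.28. Scarb1, the HDL receptor, and Gramd1b rose in ABpIF/F by 1.27 ± 0.15 and 2.37 ± 0.42. Gramd1b had few reads, with a mean of 0.65 CPM in Ctrl and 3.38 CPM in ABpIF/F.

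Lipogenic genes fell in both comparisons with Ctrl. Of 8 lipogenic genes of the fed state 5 were downregulated in each comparison with Ctrl, with median log2 fold changes of -1.78 in ABpIF/+ and -1.59 in ABpIF/F. Me1, malic enzyme, had -3.85 ± 0.18 and -4.10 ± 0.24, Elovl6, an elongase, -2.98 ± 0.41 and -3.11 ± 0.55, and Fasn, fatty acid synthase, -1.74 ± 0.38 and -2.32 ± 0.51. Of 9 fasting-induced genes 2 were upregulated and 1 downregulated in ABpIF/+ vs Ctrl, and 1 and 4 in ABpIF/F vs Ctrl. Pck1, a gluconeogenic enzyme, fell in ABpIF/F (-1.70 ± 0.35, adjusted p = 0.0017) and had 0.40 ± 0.26 in ABpIF/+ (adjusted p = 0.341), a difference of 2.10 ± 0.36 between the ABpI groups (adjusted p = 0.000388), and Igfbp1 rose in both, by 5.45 ± 0.53 and 3.85 ± 0.53. The study's text reports that ABpIF/+ mice lost body weight and looked ill, while Ctrl and ABpIF/F mice kept gaining weight. The nutritional state of the mice at collection is not in the labels. Its part and that of the weight loss in the sterol genes were not tested.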

How the data were processed

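Liver RNA of 15 mice was sequenced. Per the submitters' notes, the authors aligned the reads to mm10 with HISAT2 and counted them per gene with featureCounts 2.0.8. The deposited values are raw read counts of 27179 genes, 1 column per mouse. The 23 listed samples name 15 mice, 8 of them by 2 samples each. A second table held equal counts in the 10 columns compared, and 5 columns headed by numbers only were not used. It also holds the authors' fold changes and p-values, which were not used. From these counts edgeR 4.0.16 (R 4.3.3) gave TMM-scaled CPM and a robust quasi-likelihood fit of the 3 groups over all 27179 genes, without filter or covariate, tested on simulated data. Upregulated and downregulated mean an adjusted p under 0.01 and at least 2-fold. Depth was 24742910 to 32262649 counts, so a gene at 0 in a mouse allows up to 3 counts, counting error only. Exon lengths are unions of GENCODE M21 exons, and promoters come from RefSeq. Replicate numbers only name mice. Alternatives were other scalings, DESeq2 1.42.0, other filters, thresholds and fits, each mouse left out, and a clock covariate. All 27 genes are named. The genes and lists were chosen with earlier results of these data known. Of the other lists, up to 3 called genes with the largest change per comparison are named. Strand use in counting is not given in the sources used here, and exons of Fdps, Fdft1, Scap, Hmgcs1 and Tm7sf2 share 26.7%, 18.3%, 13.2%, 12.1% and 12.1% of their bases with another annotated gene.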

Additional observations from a re-analysis of the deposited data

Results flagged for a closer look

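Of 54 combinations of a gene with a group of 6 mice, 2 had a mouse farther from the others than Dixon's critical ratio at the 95% level, where chance alone gives about 1 in 20. Both were the Ctrl mouse malpa387. Sqle read 78.4 CPM there, with the nearest Ctrl mouse at 179.7 CPM (ratio 0.691). Insig2 read 270.2 CPM there, with the nearest at 108.9 CPM (ratio 0.779). The clock score of this mouse, 0.38, lay outside the -5.50 to -4.50 of the other Ctrl mice, and its part in these values was not tested.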

How the results depend on the processing

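No paired analysis was possible because replicate numbers only name mice. Of 2025 recomputed log2 fold changes of the 27 genes, 1944 kept their direction and side of the threshold, 24 calls ended, 15 were gained and 42 values that were not called changed sign. The other deposited table was not run, since its counts were equal in the 10 columns compared. The counts below have no share of expressed genes beside them, except where the text above gives one. Without that share, a change in these genes and a change over all genes cannot be told apart. In ABpIF/+ vs Ctrl the counts were 0 upregulated, 0 downregulated and 2 lower with BG3 as the only Ctrl mouse, 0 and 1 at a 4-fold threshold, and 1 higher with total counts only or at an adjusted p under 0.01 at any fold. Leaving out 1 mouse gave 6 to 8 downregulated, 1 upregulated, 8 to 12 lower and 2 to 3 higher. In ABpIF/F vs Ctrl there were 5 downregulated by DESeq2, 4 without robust estimation, 5 at an adjusted p under 0.05 with 2-fold and 0 at 4-fold; 3 were lower with only the groups compared and 2 at an adjusted p under 0.01 at any fold. With the clock covariate, and with BG3 as the only Ctrl mouse, there were 1 downregulated, 0 higher and 2 lower. Leaving out 1 mouse gave 1 to 4 downregulated, 0 to 2 higher and 2 to 10 lower. In ABpIF/+ vs ABpIF/F upregulated genes were 0 with upper quartile scaling, total counts, only the groups compared, the clock covariate or 4-fold. Higher genes were 1 with upper quartile scaling, total counts, only the groups compared or an adjusted p under 0.01. Lower genes were 2 with total counts and 1 by DESeq2. Leaving out 1 mouse gave 0 to 1 upregulated, 1 to 3 higher and 0 to 5 lower.

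Total counts moved the median of all genes by -0.18 in ABpIF/+ vs Ctrl and by -0.19 in ABpIF/+ vs ABpIF/F. With it the sign changed for Mvk (-0.022) and Insig2 (-0.049) in the first comparison and for Ggps1 (-0.065) and Insig1 (-0.030) in the second. Insig1 was -0.0092 with upper quartile scaling in ABpIF/+ vs ABpIF/F, and Dhdds -0.015 with filterByExpr in ABpIF/F vs Ctrl. With BG3 as the only Ctrl mouse, ABpIF/+ vs Ctrl gave Mvk -0.23, Lss 0.050, Scap 0.00036 and Stard4 0.062, and ABpIF/F vs Ctrl gave Lss 0.24 and Dhdds -0.043. With the clock covariate, ABpIF/F vs Ctrl gave Sqle 0.30, Lss 0.58, Dhcr7 0.051, Insig2 -0.62 and Stard4 0.28, and ABpIF/+ vs ABpIF/F gave Sqle -0.61, Msmo1 -0.24, Hsd17b7 -0.33, Insig1 -0.24, Insig2 1.01 and Stard4 -0.79. Leaving out 1 mouse, ABpIF/+ vs ABpIF/F ran from -0.78 to 0.13 for Mvk, -0.16 to 0.46 for Pmvk, -0.049 to 0.73 for Fdps, -0.047 to 0.61 for Sqle, -0.60 to 0.35 for Lss, -0.52 to 0.17 for Cyp51, -0.26 to 0.39 for Tm7sf2, -0.072 to 0.61 for Msmo1, -0.68 to 0.0071 for Nsdhl, -0.085 to 0.40 for Ebp, -0.32 to 0.68 for Insig1 and -0.045 to 0.50 for Stard4. ABpIF/+ vs Ctrl ran from -0.31 to 0.19 for Mvd, and ABpIF/F vs Ctrl from -0.76 to 0.19 for Lss and -0.20 to 0.18 for Dhdds. The cause of these changes was not tested. The promoter shares kept their order when only bases before the start were searched. With 3 mice in ABpIF/F and 1 of them far from the others, differences of single enzymes in that group are the least certain.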
